A study of Mus musculus with 12 samples.

Results

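The comparison described here asks whether reduced Stag2 acts differently on gene expression in proliferating and in quiescent cells. It is an interaction, the knockdown effect in quiescent cells minus the knockdown effect in proliferating cells, taken on the log2 scale within each of 3 experiments, numbered 5, 7 and 9 in the labels. All 12 of the 12 RNA sequencing libraries of the series enter it, 1 per experiment and group, and it was computed for 12406 of the 23337 genes in the count table, those with enough counts to test. The cells were NU1, a line of normal mouse urothelium that became immortal without an introduced oncogene. The 4 groups were proliferating cells with the control hairpin shNT, which the labels call WT, proliferating cells with the Stag2 hairpin sh4 (Stag2-KD), and both of these again in quiescence. Quiescent cells had grown to confluence, had then received rosiglitazone (1 µM), a PPAR gamma agonist, and erlotinib (0.5 µM), an inhibitor of the EGF receptor kinase, and were labelled day 7. All cells carried a lentiviral hairpin, and 1 hairpin and 1 cell line stand for the knockdown, so effects of sh4 on other transcripts cannot be told apart from those of Stag2. State, confluence and both drugs changed together and cannot be told apart either. The experiments coincide with batches 3, 1 and 2 of the labels, and nothing in the labels says that replicates came from separate cultures, so p-values measure the spread between these libraries, which may be technical.

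Stag2 is a subunit of cohesin, the ring-shaped complex that holds sister chromatids together and shapes chromatin loops, and the cohesin ring can carry either Stag2 or its paralog Stag1. In quiescent cells the DREAM complex, built from a pocket protein, E2f4 or E2f5, a DP partner and the MuvB core, sits on promoters of cell-cycle genes and keeps them repressed. Genes of G1/S, needed for DNA replication, are repressed through E2F sites, and genes of G2/M, needed for mitosis, mostly through the cell-cycle homology region, or CHR.

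Libraries held between 14524429 and 21987539 counts. The average RNA integrity number in the labels was 9.7. Several epithelial genes were abundant in every library: Krt8 had 3315 to 9445 CPM on plain library totals, Krt18 2639 to 6798, Cdh1 668 to 2306 and Krt20, of superficial urothelial cells, 533 to 1781. Other urothelial markers were low or absent. The basal urothelial factor Trp63 had 0 counts in all 12 libraries, and the uroplakin gene Upk3a had at most 1. In the highest library the basal keratins Krt5 and Krt14 reached 6.76 and 10.4 CPM. The uroplakin genes Upk1a, Upk1b, Upk2 and Upk3b reached 3.96, 2.33, 1.46 and 9.30 CPM, and Grhl3 2.75. Summed over their marker lists, fibroblast genes reached 2.56 CPM, endothelial genes 0.796 and smooth muscle genes 0.808 in the highest library, and the immune list, of which Cd68 held nearly the whole, 9.78.

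Stag2 itself checks the labels, and it carried an interaction of its own. Levels from here on are CPM on library totals scaled by TMM, a method that evens out differences in composition. In proliferating control cells it had 139, 145 and 113 CPM in experiments 5, 7 and 9, the order used throughout, and in proliferating knockdown cells 33.3, 24.9 and 24.6. In quiescent control cells it had 128, 126 and 107 CPM, and in quiescent knockdown cells 9.43, 15.3 and 11.7. All knockdown libraries lay below all control libraries, and those of quiescent cells lay below those of proliferating cells. The double difference, the knockdown effect in quiescence minus that in proliferation computed from log2 CPM, was -1.69, -0.50 and -1.001. In the main edgeR fit, which has no term for the experiment, the fitted log2 interaction was -1.05 (SE 0.26). The SEs below come from that fit and leave out the pairing by experiment. They therefore do not measure the spread of the double differences. The Stag2 interaction passed the adjusted threshold only in DESeq2 with a term for the experiment (adjusted p 0.0253). The depth of the knockdown thus differed in size between the states in each experiment, and its part in the values below was not tested.

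Across all genes, no single gene passed in the main test. The edgeR quasi-likelihood test of the interaction had 0 of 12406 genes (0%) at a Benjamini-Hochberg adjusted p under 0.05, with a smallest adjusted p of 0.637, for Ccne2. With the experiment as a replicate block it also had 0 (0%), with a smallest adjusted p of 0.0786, for Mcm5. At an unadjusted p under 0.05 there were 219 genes, 129 positive (1.04%) and 90 negative (0.725%). With the block there were 590, 328 positive (2.64%) and 262 negative (2.11%). These totals are 1.77% and 4.76% of genes, and evenly spread p-values would give a share of 0.05. In limma on the double differences the share was 9.85%. Without the proliferating control library of experiment 5 the count of 219 became 401, and without the proliferating knockdown library of the same experiment 144. Other tools made a few calls: limma on the double differences 2 genes (0.0161%), Aldh1a1 and Ppbp, and the DESeq2 Wald test 6 (0.0485%), namely Ccne2, Dtl, Mcm5, Tcf19, Aldh1a1 and Csgalnact2. DESeq2 with the replicate block called 22 positive (0.177%) and 7 negative genes (0.0564%). Of the 22, 10 were on a list of 71 G1/S genes and 1 on a list of 102 G2/M genes. Of the 7, none was on either list. Of all 12406 tested genes, 70 were on the first list and 96 on the second.

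The double differences repeated only in part between experiments. All 3 values were positive for 2032 genes (16.4%) and negative for 1773 (14.3%), and the same sign in all 3 was held by 30.7% of genes. For the knockdown effect in quiescent cells that share was 46.7%, and for quiescence in control cells 63.1%. Between experiments, which share no library, Pearson's r of the double differences across genes was 0.196 for 5 and 7, 0.263 for 5 and 9 and 0.165 for 7 and 9, and Spearman's rho was -0.00095, 0.239 and 0.179. Genes are not independent replicates, and these values describe the libraries only. The SD of a gene's double difference over the 3 experiments had a median of 0.29, against a median counting error of 0.12 to 0.13 in a single experiment. At a size above 1 in every experiment there were 50 positive genes (0.403%), of which 7 were G1/S and 2 G2/M genes, and 16 negative genes (0.129%), of which 0 were on those lists.

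The G1/S list had the largest share of members positive in all 3 experiments among the lists with at least 5 tested genes. Of 70 tested, 66 had a positive fitted interaction and 49 were positive in all 3 experiments, against 51.5% and 16.4% of all genes. The median interaction was 0.55 over the list and 0.01 over all genes, and the list medians by experiment were 0.67, 0.76 and 0.34. At an unadjusted edgeR p under 0.05 there were 27 positive and 0 negative members, and with the replicate block 35 and 0. Over all genes the shares were 1.04% positive and 0.725% negative, and with the block 2.64% and 2.11%. The knockdown effect had a list median of -0.13 in proliferating and 0.50 in quiescent cells. With quiescence the list median was -2.54 in control and -1.97 in knockdown cells, so the listed genes remained far below their proliferating level in both. In bulk RNA, more cells in cycle and more RNA per cell cannot be told apart. Leaving out single libraries gave medians from 0.40 to 0.72 and between 58 and 68 positive members. The count of 27 became 11 without the quiescent knockdown library of experiment 7, 15 without the proliferating knockdown library of experiment 5 and 17 without the proliferating control library of experiment 7.

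The promoters of 3 of the leading G1/S and checkpoint genes and of 1 G2/M gene are shown because they hold different cell-cycle motifs. They are RefSeq promoters on GRCm38.p6, 250 bases before to 50 after the transcript start, 5′ to 3′ on the gene's strand. The capitals mark the E2F motifs TTCCCGC and TTGGCGC, the CHR motif TTTGAA and the motif CCAAT, on either strand. The regions are chr8:75109259-75109558 (plus strand) for Mcm5, chr1:191575495-191575794 (minus) for Dtl, chr9:36726609-36726908 (minus) for Chek1 and chr11:99024140-99024439 (minus) for Top2a.
Mcm5: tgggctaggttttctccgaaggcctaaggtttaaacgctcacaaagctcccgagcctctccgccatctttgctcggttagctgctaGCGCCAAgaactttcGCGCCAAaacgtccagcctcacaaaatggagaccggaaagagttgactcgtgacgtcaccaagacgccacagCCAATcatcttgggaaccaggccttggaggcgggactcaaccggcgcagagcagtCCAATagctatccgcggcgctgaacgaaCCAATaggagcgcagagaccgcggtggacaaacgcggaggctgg
Dtl: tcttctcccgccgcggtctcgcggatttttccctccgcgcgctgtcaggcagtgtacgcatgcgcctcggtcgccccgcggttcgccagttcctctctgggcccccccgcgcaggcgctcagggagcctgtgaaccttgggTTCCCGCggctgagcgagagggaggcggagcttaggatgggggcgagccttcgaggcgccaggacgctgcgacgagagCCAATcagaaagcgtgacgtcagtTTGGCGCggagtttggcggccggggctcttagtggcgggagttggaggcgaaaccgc
Chek1: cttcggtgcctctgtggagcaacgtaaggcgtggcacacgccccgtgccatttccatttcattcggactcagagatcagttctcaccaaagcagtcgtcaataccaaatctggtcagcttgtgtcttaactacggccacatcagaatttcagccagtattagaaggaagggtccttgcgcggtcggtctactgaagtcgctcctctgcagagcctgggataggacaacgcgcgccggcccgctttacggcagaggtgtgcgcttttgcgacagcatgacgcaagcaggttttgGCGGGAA
Top2a: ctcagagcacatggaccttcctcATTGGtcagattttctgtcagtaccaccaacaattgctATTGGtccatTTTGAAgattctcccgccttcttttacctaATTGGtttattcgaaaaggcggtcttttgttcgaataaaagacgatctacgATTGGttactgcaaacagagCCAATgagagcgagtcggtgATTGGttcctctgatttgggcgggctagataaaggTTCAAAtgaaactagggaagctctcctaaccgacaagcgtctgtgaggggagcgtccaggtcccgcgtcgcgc
Mcm5 held 2 E2F and 3 CCAAT motifs, and Dtl held 2 E2F motifs and 1 CCAAT motif. Chek1 held 1 E2F motif, beginning at base 44 after the start, at the end of the region, and no CCAAT motif. Top2a held no E2F motif but 2 CHR and 6 CCAAT motifs. A promoter was at hand for 9925 of the 12406 tested genes. Of these 8.78% held TTCCCGC, 4.48% TTGGCGC, 12.7% at least 1 of both, 11.6% TTTGAA and 39.2% CCAAT. Of the 96 tested G2/M genes 79 had a promoter, and 65.8% of these held TTTGAA and 73.4% CCAAT. Of the 70 G1/S genes only 53 had one, too few for a share over the list, so that check is void. A match describes letters and is no evidence of binding.

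Among genes that license and fire replication origins, Mcm5, a subunit of the MCM helicase, had the smallest adjusted p in DESeq2 with the block. It had 110, 151 and 126 CPM in proliferating control and 90.6, 130 and 115 in proliferating knockdown cells. In quiescence it had 3.24, 6.61 and 5.55 CPM in control and 12.7, 19.3 and 11.7 in knockdown cells. The knockdown libraries were thus lower in each proliferating pair and higher in each quiescent pair, and the quiescent groups did not overlap. Its double differences were 2.22, 1.75 and 1.18, and the fitted interaction was 1.70 (SE 0.37), called by DESeq2 without (adjusted p 0.0431) and with the block (adjusted p 3.11e-09). The other MCM genes had smaller fitted interactions, with Mcm3 at 0.99, Mcm2 at 0.87, Mcm6 at 0.67, Mcm4 at 0.54 and Mcm7 at 0.41, and Mcm2 was the most even of them at 0.80, 0.83 and 0.95. Mcm10, an initiation factor, had 1.38, Cdc6, the MCM loader, 1.10, and Cdt1, its partner, 0.47. All of these were positive in all 3 experiments.

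Dtl, the substrate receptor of a ubiquitin ligase that destroys Cdt1 in S phase, was higher with knockdown in each quiescent pair and lower in the proliferating pairs of experiments 5 and 7. It had 34.2, 34.9 and 36.8 CPM in proliferating control and 30.2, 31.1 and 37.3 in proliferating knockdown cells, groups that overlap. In quiescence it had 2.14, 2.45 and 2.45 CPM in control and 4.81, 8.47 and 4.98 in knockdown cells, with no overlap. The double differences were 1.30, 1.91 and 0.97 and the interaction 1.47 (SE 0.30), called by DESeq2 without (adjusted p 0.0431) and with the block (adjusted p 0.00438). The knockdown effect in quiescence alone passed in edgeR for Dtl (adjusted p 0.0296) and for Mcm5 (adjusted p 0.0451).

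Ccne2, a cyclin that drives entry into S phase, had the smallest p in edgeR and the largest interaction of the genes called by DESeq2 without the block. Proliferating control cells had 7.46, 10.3 and 7.22 CPM and proliferating knockdown cells 7.52, 13.8 and 11.7. Quiescent control cells had 0.414, 0.245 and 0.239 CPM, from only 6, 4 and 4 counts, and quiescent knockdown cells 2.22, 2.80 and 2.29. The quiescent knockdown libraries were all above the control libraries. The double differences were 2.13, 2.59 and 2.07 and the interaction 2.60 (SE 0.44), called by DESeq2 without (adjusted p 0.0431) and with the block (adjusted p 0.00328). Its paralog Ccne1 had double differences of -0.01, 1.00 and -0.67 and an interaction of 0.12.

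**Figure D1:**
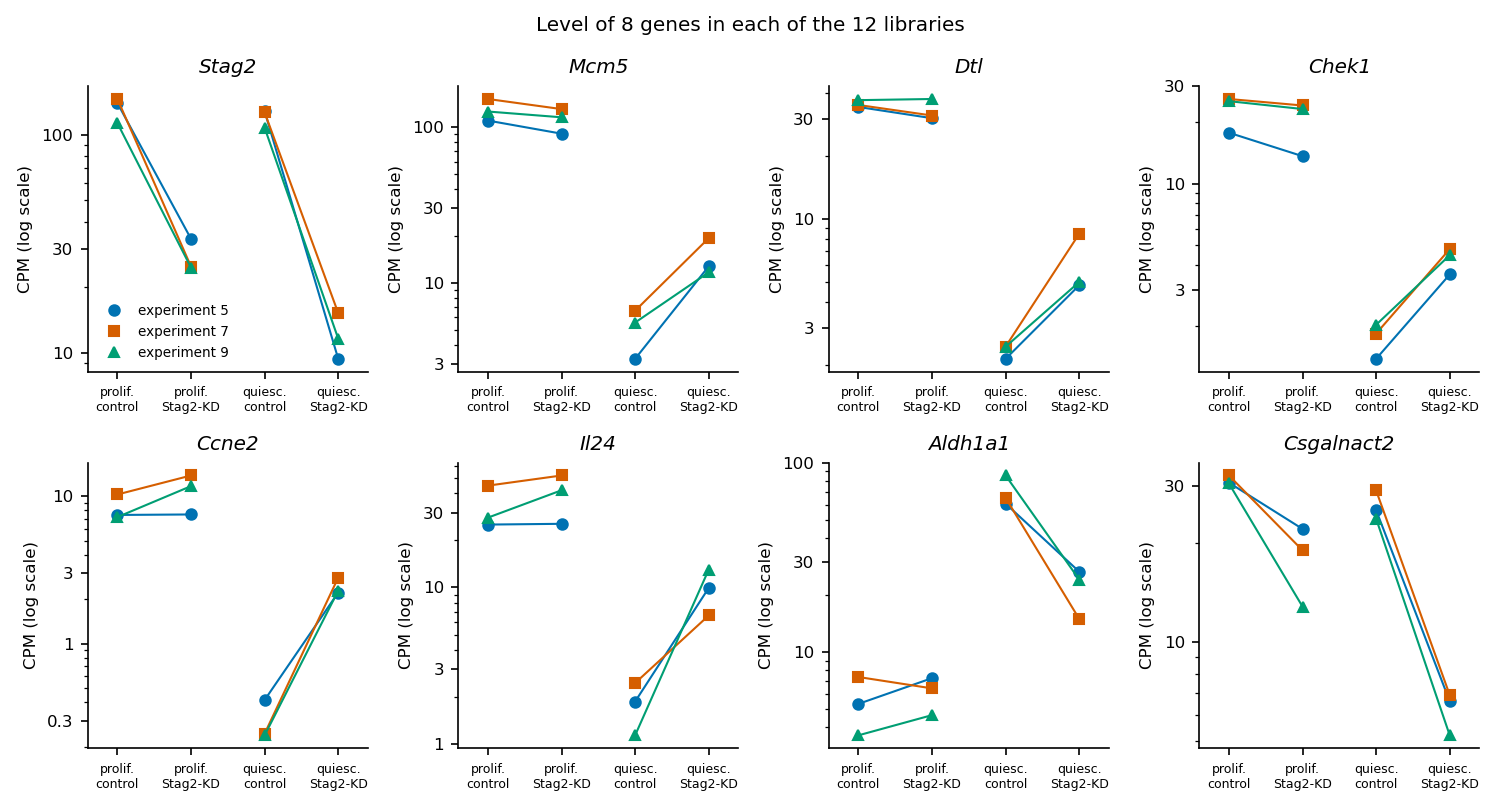
CPM on a log axis of 8 genes in the 12 libraries, by group (proliferating and quiescent, control and Stag2 knockdown). Each point is 1 library, colour and shape give the experiment, and lines join control and knockdown of the same experiment and state. The lines of Mcm5, Dtl, Chek1, Ccne2 and Il24 climb in quiescence and are nearly level or slightly down or up in proliferation, while those of Aldh1a1 drop in each quiescent pair and, slightly, in the proliferating pair of experiment 7, and those of Stag2 and Csgalnact2 drop in both states.

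Some genes of the S-phase checkpoint and of repair of stalled forks were among the highest ranks. Chek1, the checkpoint kinase, which is not on the list, had 17.8, 26.0 and 25.4 CPM in proliferating control, 13.6, 24.2 and 23.2 in proliferating knockdown, 1.38, 1.84 and 2.03 in quiescent control and 3.58, 4.77 and 4.45 in quiescent knockdown cells. It was lower with the knockdown in each proliferating pair and higher in each quiescent pair. The double differences were 1.69, 1.43 and 1.22, the interaction was 1.46 (SE 0.37) and DESeq2 with the block called it (adjusted p 0.00167). Brip1, a helicase that works with Brca1, had double differences of 1.42, 1.45 and 1.20, the closest together of the 12 highest genes, and an interaction of 1.35 (SE 0.33). Clspn, the adaptor through which Chek1 is activated, had 2.52 (SE 0.91), with 3.27, 2.94 and 1.58. It stood at 0 counts in the quiescent control library of experiment 5, where 3 counts would be 0.207 CPM, and at 0.551 and 0.954 CPM in the others, against 0.861, 4.41 and 2.99 in quiescent knockdown cells.

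Chromatin and nucleotide genes of S phase were next. Chaf1a, a subunit of the histone chaperone CAF-1, had an interaction of 0.82 (SE 0.24), even over experiments at 1.01, 0.68 and 0.79. Rrm2, of ribonucleotide reductase, had 1.22 (SE 0.51) and 1.80, 1.12 and 1.02. Both were called by DESeq2 with the block, with adjusted p 0.0106 and 0.0123. Tcf19 and Nrm are not on the list. Tcf19 had 1.50 (SE 0.31), with 18.3, 17.5 and 11.3 CPM in proliferating control, 14.5, 19.2 and 15.7 in proliferating knockdown, 2.07, 2.51 and 1.97 in quiescent control and 6.26, 7.10 and 6.15 in quiescent knockdown cells. The quiescent groups did not overlap and the proliferating ones did. Nrm, of the nuclear envelope protein nurim, had 1.36 (SE 0.33), with double differences of 1.52, 1.10 and 1.42. Not every G1/S gene took part: Pcna, the polymerase clamp, had 0.07 (0.30, 0.02 and -0.08), and 4 genes were negative in the fit, among them Cdca7 at -0.26. Pcna and Cdca7 were picked out after their values were seen.

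**Figure D2:**
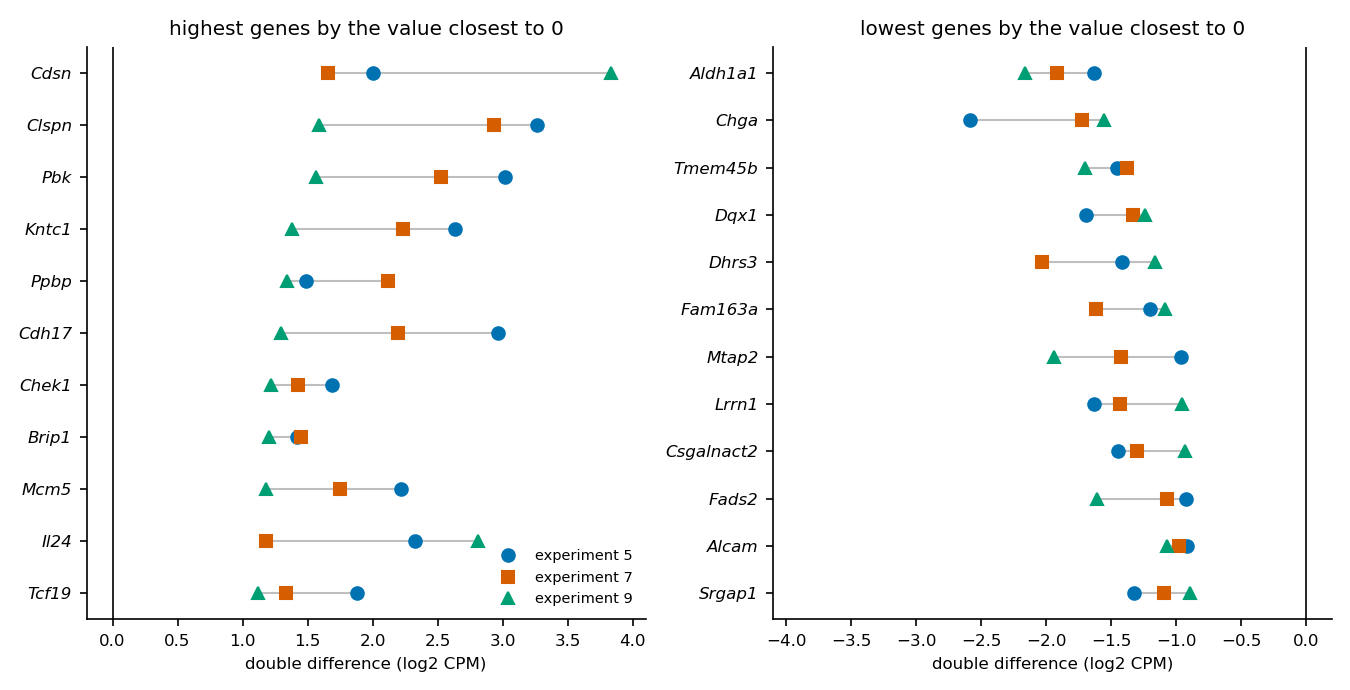
Double differences of log2 CPM (knockdown effect in quiescence minus that in proliferation) in experiments 5, 7 and 9 for the 12 highest and 12 lowest genes when ranked by whichever of their 3 values is closest to 0, leaving out genes under 2 in mean log2 CPM and 1 gene that is not reported here. Points are experiments and grey lines join a gene's lowest and highest value. Alcam and Brip1 have the points closest together, and Cdsn the widest range, from 1.66 to 3.83.

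The G2/M genes had a larger median than the G1/S genes but did not repeat in every experiment. Of 96 tested, 89 had a positive fitted interaction, with a list median of 0.79, yet only 40 were positive in all 3 experiments. The shares over all genes were 51.5% and 16.4%. The medians were 0.87, 1.65 and -0.08, the last near 0 and negative. At an unadjusted edgeR p under 0.05 there were 2 members, both positive, and with the replicate block 33 positive and 1 negative. Over all genes the shares were 1.04% positive and 0.725% negative, and with the block 2.64% and 2.11%. Without all 4 libraries of experiment 7 the median was 0.18 and without experiment 9 it was 1.43. Over single libraries left out it ran from 0.30 to 1.26, and the count of 2 became 10 without the proliferating knockdown library of experiment 9, 16 without the quiescent knockdown library of experiment 5 and 17 without the quiescent control library of experiment 9.

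The levels behind these medians differed between experiments in every group, and their order in no single group is that of the double differences. The median level of the G2/M list was 0.71, 1.46 and 2.35 log2 CPM in quiescent control and 1.09, 2.92 and 2.24 in quiescent knockdown cells. In proliferating cells it was 4.99, 5.60 and 5.71 in control and 4.40, 5.38 and 5.83 in knockdown cells. The quiescent control of experiment 9 thus had the highest G2/M level of the 3 controls and that of experiment 5 the lowest. In that library of experiment 5, 5 of the genes stood at 0 counts, and their double differences depend on the added prior count. For the G1/S list the quiescent control medians were closer together, at 2.60, 2.70 and 2.51, with 2.95, 3.53 and 2.86 in knockdown cells. The median knockdown effect on the G2/M list was -0.51, -0.23 and 0.15 in proliferating and 0.37, 1.36 and 0.08 in quiescent cells. The part of the group levels in the result was not tested.

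Mki67, a marker of cycling cells, had 185, 225 and 190 CPM in proliferating control, 110, 192 and 264 in proliferating knockdown, 0.552, 6.24 and 7.93 in quiescent control and 5.49, 33.6 and 17.6 in quiescent knockdown cells. Each quiescent pair was higher with knockdown, but the quiescent groups overlapped. The double differences were 3.81, 2.64 and 0.66, and the interaction of 2.00 (SE 0.96) was not past the threshold under any alternative. Top2a, the topoisomerase that untangles chromosomes, had 2.71, 2.56 and 0.40, and Ccnb1, the mitotic cyclin, 2.28, 2.22 and -0.56. The fitted value of Ccnb1 was 0.98 (SE 1.20), and it was -0.09 without the quiescent knockdown library of experiment 7. Pbk, a mitotic kinase, was the G2/M gene called by DESeq2 with the block, with 3.02, 2.52 and 1.56 and an interaction of 2.35 (SE 0.78) (adjusted p 0.00336). Kntc1, of the spindle checkpoint, which is not on the list, had 2.63, 2.24 and 1.38 and an interaction of 1.98 (SE 0.80, DESeq2 with the block adjusted p 0.0242).

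**Figure D3:**
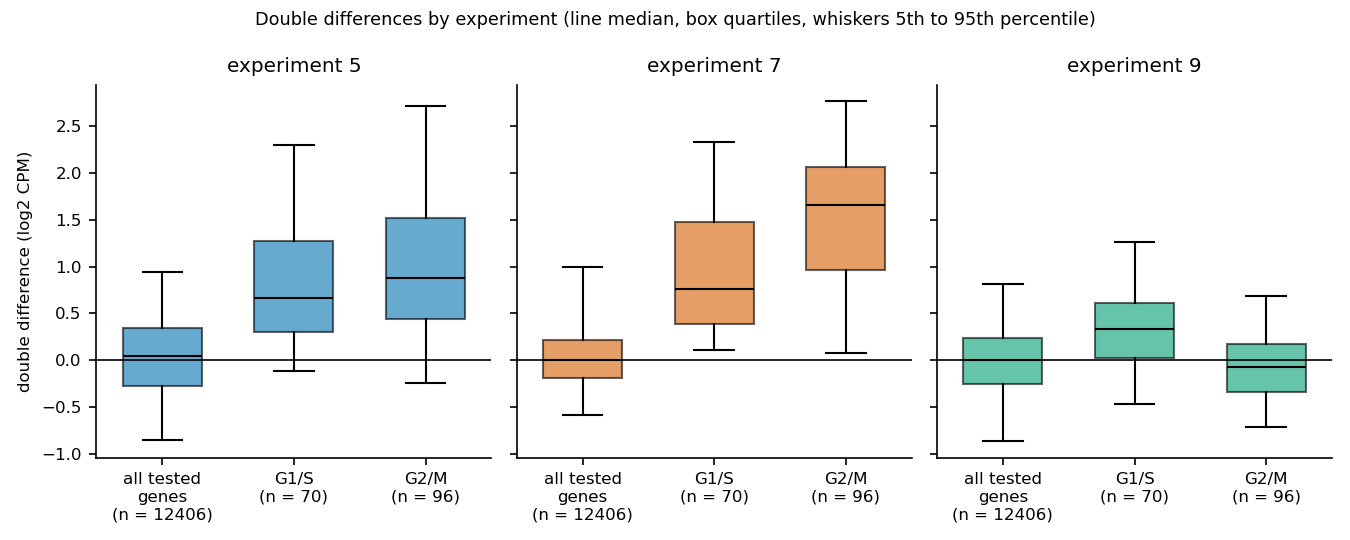
Double differences of log2 CPM in each experiment for all 12406 tested genes, 70 G1/S genes and 96 G2/M genes. The line is the median, the box the quartiles and the whiskers the 5th to 95th percentile over genes. The G1/S medians lie above 0 in each experiment (0.67, 0.76 and 0.34), while the G2/M medians are 0.87, 1.65 and -0.08.

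**Figure D4:**
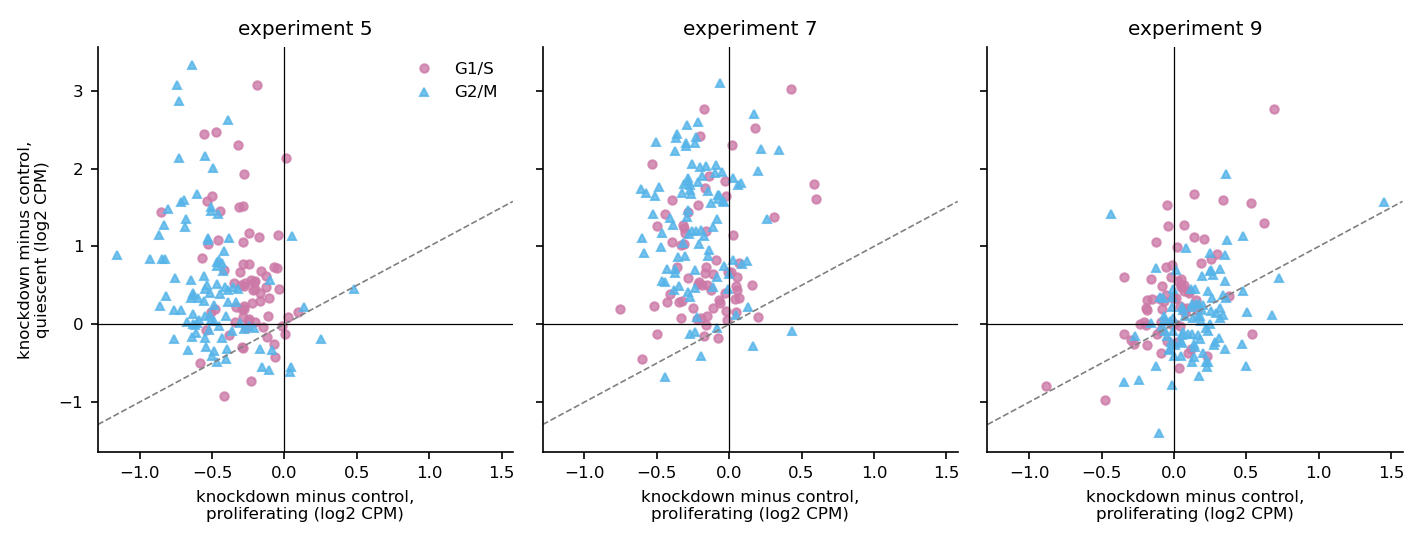
Knockdown minus control in log2 CPM of the 70 G1/S genes (circles) and 96 G2/M genes (triangles), in proliferating cells on the x axis and quiescent cells on the y axis, by experiment. The dashed line marks equal effects, and a point above it has a positive double difference. In experiments 5 and 7 most points lie above the line and left of 0, and in experiment 9 the G2/M genes lie around the line (median -0.08).

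Transcription factors of these programmes had positive interactions. Of 21 genes of DREAM and the E2F family, 17 were positive in the fit and 11 in all 3 experiments, with a median of 0.20. The shares over all genes were 51.5% and 16.4%. Mybl2, which binds MuvB when cells re-enter the cycle, had 0.897, 1.59 and 1.25 CPM in quiescent control and 1.27, 5.37 and 2.58 in quiescent knockdown cells, against 25.3, 40.8 and 30.9 and 20.7, 34.5 and 33.1 in proliferating cells. Each quiescent pair was higher with knockdown, but the groups overlapped, and the interaction was 1.41 (SE 0.61; 0.74, 1.92 and 0.88). E2f1, the activating E2F, had 0.80 (SE 0.29; 0.77, 1.07 and 0.61), E2f8, an atypical E2F repressor, 1.64 (SE 0.65; 2.11, 1.88 and 0.88), and Foxm1, the factor of G2/M genes, 0.87 (SE 0.62; 1.26, 1.41 and 0.20). Of these 4 genes DESeq2 with the block called E2f8 (adjusted p 0.036). Among genes of DREAM itself, Rbl2, the p130 pocket protein, had -0.30, the lowest of the list, Lin37 had -0.23, and E2f5 and the DP partner Tfdp1 had 0.20 each.

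Cohesin genes had no common sign. Of 17 tested, 8 were positive and 9 negative, with a median of -0.02. The ring subunits Smc3 and Rad21 had 0.17 and -0.19. Stag1, the paralog of Stag2, had 84.1, 85.7 and 64.8 CPM in proliferating control, 79.3, 85.8 and 79.4 in proliferating knockdown, 63.0, 58.4 and 48.1 in quiescent control and 66.7, 71.1 and 59.5 in quiescent knockdown cells. Both pairs of groups overlapped, and the interaction was 0.16 (SE 0.20). The members farthest from 0 besides Stag2 were Esco2, the acetyltransferase, at 2.00 (3.77, 1.83 and 0.59), Espl1, the separase, at 1.06 (1.36, 1.94 and 0.11), Cdca5, of sororin, at 0.85 (1.00, 1.62 and 0.08) and Pttg1, of securin, at -0.39 (0.09, -0.52 and -0.72). Among the inhibitors of cyclin-dependent kinases, 5 of 7 were negative, as were 6019 of all 12406 tested genes. Cdkn2a had -0.72 (SE 0.25; -0.52, -0.36 and -1.18) and Cdkn2b, of p15, -0.58 (SE 0.22; -0.35, -0.63 and -0.78), while Cdkn1c, of p57, had -0.33 with mixed signs. All 5 D-type cyclins and kinases were positive in the fit, between 0.07 and 0.31, but 1 was so in all 3 experiments (16.4% of all genes were).

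Several genes of secreted and surface proteins had positive interactions. Il24, a cytokine of the Il10 family, had 25.2, 44.8 and 28.0 CPM in proliferating control, 25.5, 52.0 and 41.8 in proliferating knockdown, 1.86, 2.45 and 1.13 in quiescent control and 9.93, 6.62 and 13.01 in quiescent knockdown cells. The quiescent groups did not overlap. Its interaction was 2.15 (SE 0.51; 2.33, 1.18 and 2.81), called by DESeq2 with the block (adjusted p 0.00336). Ppbp, the precursor of the chemokine Cxcl7, had 48.0, 17.1 and 32.4 CPM in quiescent control and 132, 74.8 and 118 in quiescent knockdown cells, and 113, 106 and 56.8 against 111, 106 and 81.3 in proliferating cells. It had an interaction of 1.63 (SE 0.51; 1.49, 2.12 and 1.34), called by limma on the double differences (adjusted p 0.0343) and by DESeq2 with the block (adjusted p 0.0362). Of 16 epithelial cytokine genes tested 10 were positive (51.5% of all genes were), with list medians of 0.33, 0.62 and 0.20. Cxcl1, a neutrophil chemokine, had 0.63 (SE 0.36; 0.45, 0.84 and 0.62).

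Gdf11, a TGF-beta family ligand, was low throughout, with 0.690, 0.306 and 0.596 CPM in quiescent control and 3.90, 3.64 and 6.21 in quiescent knockdown cells, and 1.18, 1.90 and 2.05 against 1.57, 2.38 and 4.19 in proliferating cells. Its interaction was 2.43 (SE 0.64; 1.93, 2.85 and 2.16), called by DESeq2 with the block (adjusted p 0.0181). Nrg1, a ligand of the ErbB receptors, had 1.05 (SE 0.55; 1.05, 1.04 and 1.25). Cdh17, a cadherin, had 1.95 (SE 1.06; 2.96, 2.20 and 1.30), and the knockdown value was positive in both states there, with a fitted 2.44 in proliferating and 4.39 in quiescent cells. Cdsn, of corneodesmosin, came about differently: in experiment 9 it had 112 CPM in proliferating control and 23.5 in proliferating knockdown cells, and 9.00 and 27.1 in quiescence, so its double difference of 3.83 lay partly in the proliferating pair. Its fitted interaction was 2.98 (SE 1.31).

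The lowest gene by the same ranking was Aldh1a1, an enzyme that makes retinoic acid. It had 5.33, 7.39 and 3.64 CPM in proliferating control, 7.29, 6.43 and 4.65 in proliferating knockdown, 60.7, 65.1 and 85.5 in quiescent control and 26.6, 15.0 and 24.1 in quiescent knockdown cells. The quiescent groups did not overlap and the proliferating ones did. The double differences were -1.63, -1.92 and -2.16, and the interaction of -1.85 (SE 0.41) was called by limma on the double differences (adjusted p 0.0343), by DESeq2 (adjusted p 0.0492) and by DESeq2 with the block (adjusted p 0.0106). Dhrs3, which turns retinal back to retinol, had -1.41 (SE 0.96; -1.42, -2.03 and -1.16), with 55.4, 13.5 and 67.2 CPM in quiescent control and 18.0, 5.49 and 28.6 in quiescent knockdown cells. Each quiescent pair was lower with knockdown, but the levels of the experiments differed more than the pairs.

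Csgalnact2, which starts chondroitin sulfate chains, was lower with the knockdown in both states and more so in quiescence. It had 30.6, 32.2 and 30.5 CPM in proliferating control, 22.1, 19.1 and 12.9 in proliferating knockdown, 25.3, 29.0 and 23.8 in quiescent control and 6.62, 6.92 and 5.21 in quiescent knockdown cells. Neither pair of groups overlapped. The double differences were -1.45, -1.30 and -0.93, and the interaction was -1.27 (SE 0.27), called by DESeq2 without (adjusted p 0.0492) and with the block (adjusted p 0.00328). Areg, an EGF receptor ligand, had the same form, with -1.15 (SE 0.48; -1.51, -1.42 and -0.70), and Ctnna1, of alpha-catenin, -0.74 (SE 0.30; -1.16, -0.41 and -0.56), neither called in any test. Pdcl3 and Phtf1, the genes besides Stag2 that passed the threshold for the knockdown in proliferating cells, had -0.37 (SE 0.18) and -0.19 (SE 0.18).

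Further genes had negative double differences in all 3 experiments. Alcam, an adhesion molecule, had 140, 101 and 125 CPM in quiescent control and 73.9, 52.7 and 68.8 in quiescent knockdown cells, against 80.2, 39.8 and 44.5 and 79.8, 41.0 and 51.4 in proliferating cells. Its interaction was -0.97 (SE 0.41; -0.92, -0.98 and -1.07), and in edgeR with the replicate block it was -0.98 (SE 0.20). Fut8, which adds the core fucose to N-glycans, had closely spaced double differences, -0.73, -0.67 and -0.67, and an interaction of -0.70 (SE 0.41). DESeq2 with the block called both (adjusted p 0.0216 and 0.00336). Lrrn1 had -1.39 (SE 0.55; -1.63, -1.43 and -0.96), Fads2, a fatty acid desaturase, -1.28 (SE 0.54; -0.92, -1.07 and -1.61), and Srebf2, the master regulator of sterol synthesis, -0.69 (SE 0.22; -1.20, -0.29 and -0.51).

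Most other lists with at least 5 tested genes had medians nearer to 0. Over all genes, 51.5% were positive in the fit, 16.4% were positive in all 3 experiments and 14.3% negative in all 3. Tight junction genes were negative in 16 of 18 (median -0.19; 0.01, -0.08 and -0.37) and p53 targets in 20 of 22 (median -0.19; -0.19, -0.14 and -0.28), with 8 p53 targets negative in all 3 experiments. TGF-beta genes were negative in 14 of 19 (median -0.17; -0.28, -0.12 and -0.14), and PPAR targets in 14 of 18 (median -0.10; -0.11, -0.09 and -0.29). Ribosome biogenesis genes were positive in 33 of 36, with 19 so in all 3 experiments (median 0.22; 0.27, 0.04 and 0.35). Their median knockdown effect was -0.06, -0.14 and -0.48 in proliferating and 0.21, -0.13 and -0.11 in quiescent cells. The quiescent median was thus the farther from 0 in experiment 5 and the proliferating one in experiment 9, while in experiment 7 both were alike. None of these 5 lists had a member at an unadjusted edgeR p under 0.05, where 1.04% of all genes were positive and 0.725% negative. With the replicate block, 4 PPAR targets of 18 and 1 p53 target were under it, all negative, against 2.11% of all genes.

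Several lists changed sign between experiments. Cytoplasmic ribosomal protein genes were negative in 69 of 76 in the fit, but their medians were 0.48, -0.54 and -0.18, and 0 of 76 had the same sign in all 3. Oxidative phosphorylation genes had 0.46, -0.20 and -0.08, and stress response genes of Atf4 0.38, -0.12 and 0.49. The Atf4 list had a median knockdown effect of -0.40 in proliferating and -0.18 in quiescent cells. For genes induced by interferon the median was -0.00 (0.10, 0.16 and -0.15), output genes of EGFR-MAPK signalling 0.06 (-0.12, 0.13 and 0.23), and urothelial differentiation genes 0.06 (0.44, 0.14 and -0.06). The median of basal urothelial genes did not change sign (0.37; 0.22, 0.44 and 0.11), and 9 of 13 were positive in the fit, against 51.5% of all genes.

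**Figure D5:**
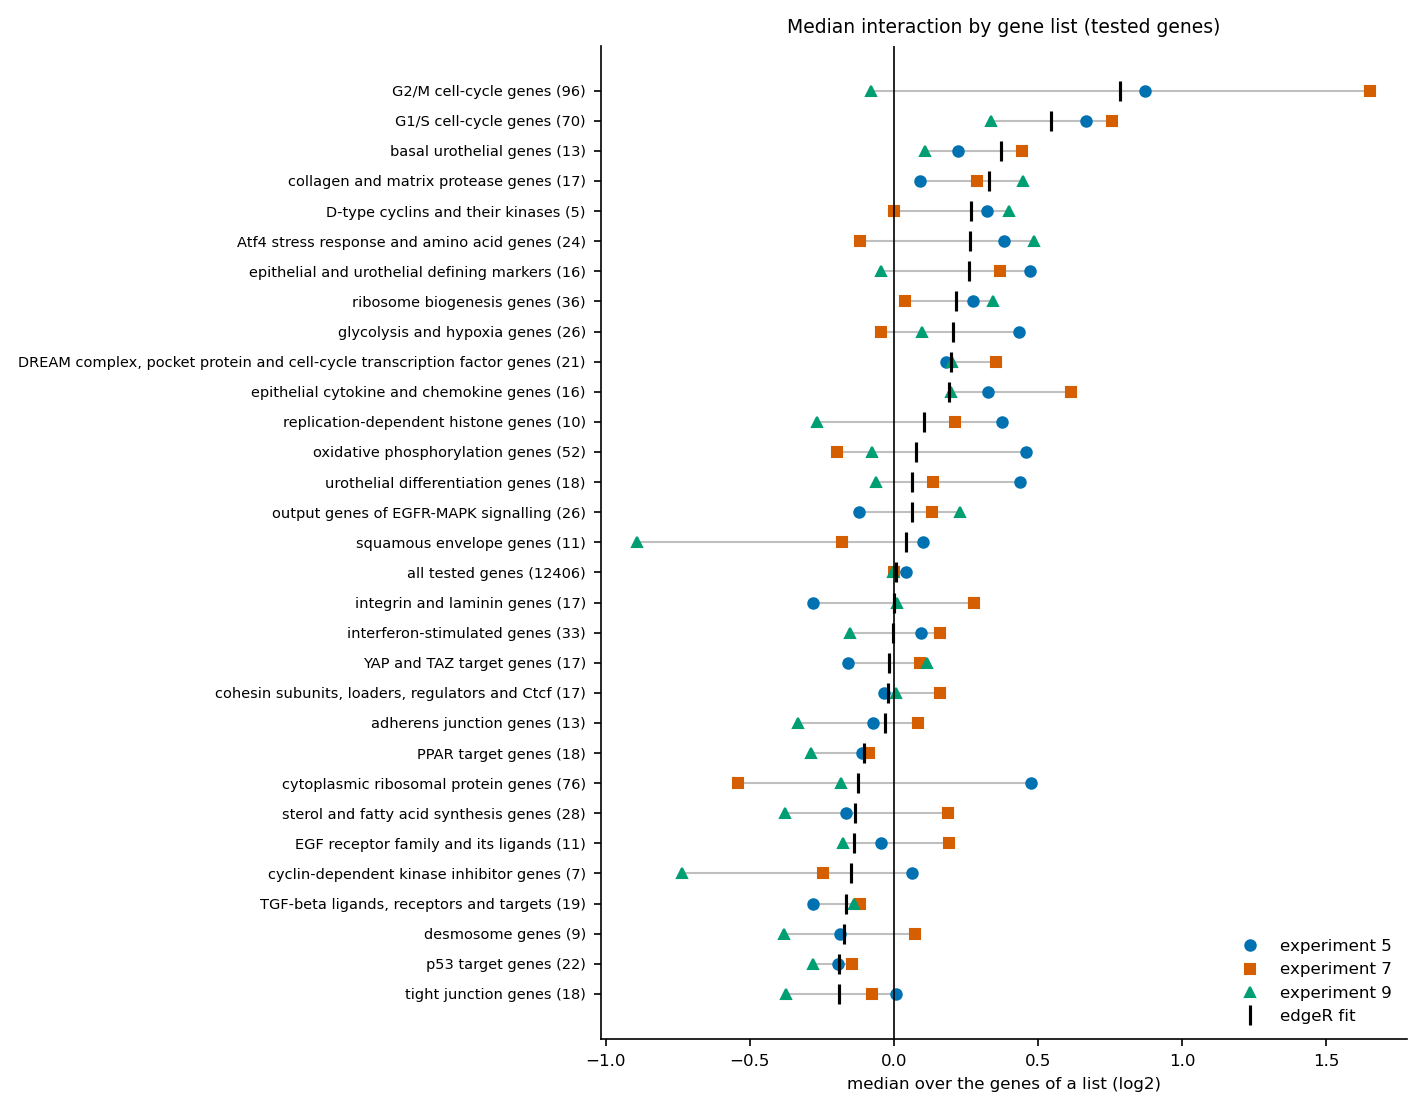
Median over the tested genes of each list with at least 5 of them (number in brackets) of the double difference in experiments 5, 7 and 9 (points) and of the fitted log2 interaction (black tick), ordered by the latter. Of the lists drawn, G1/S is the uppermost whose 3 points all lie above those of all tested genes (0.67, 0.76 and 0.34), and the ribosomal protein list spans 0.48 to -0.54.

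A last view took genes by their response to quiescence rather than by function. For each experiment, the 300 genes with the largest decrease and the 300 with the largest increase in quiescent control cells were chosen from the other experiments only. In the 300 that decreased, the median double difference was 0.62, 0.76 and 0.12, positive in 233, 265 and 171 genes. Their median knockdown effect was -0.34, -0.21 and 0.06 in proliferating cells and 0.26, 0.61 and 0.17 in quiescent cells. In the 300 that increased, the median double difference was -0.09, -0.04 and -0.24, negative in 176, 157 and 195 genes. The control libraries of the experiment itself enter the double difference, and no test was made.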

How the data were processed

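Polyadenylated RNA of 12 libraries was sequenced with a stranded kit, and ERCC spike-in RNA was added to the total RNA, per the labels' protocols. The authors deposited raw counts per gene symbol, whole numbers with no normalization, in 1 table of 23337 symbols with 0 ERCC rows. The submitters' processing notes name Bowtie, TopHat, HTSeq, DESeq2 and the build mm10, while versions, annotation and the strand setting of counting are not given in the sources used here. Reads of near-identical, overlapping or antisense genes may therefore be split in unknown ways. All rows named a gene, and 0 value columns were left unmapped.

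From the counts, edgeR 4.0.16 in R 4.3.3 was run on the 12406 genes kept by filterByExpr (minimum count 10), with TMM totals, 4 group means over all libraries, glmQLFit and glmQLFTest of the interaction, and Benjamini-Hochberg adjustment with a threshold of 0.05. Double differences used log2 CPM with a prior count of 2. The experiment number pairs the libraries, and each number has its own batch in the labels: deviations from the group means had a mean r of 0.526 over 18 pairs with the same number and -0.259 over 36 pairs with different numbers. Centring each group on its own mean nearly fixes the second value once the first is given, so it adds no separate evidence. Alternatives were a replicate block, limma 3.58.1 on the double differences, DESeq2 1.42.0 without and with the block, other size factors, filters and prior counts, and leaving out libraries or experiments. CPM are counts scaled to a library total of 1e6. Counting errors and floors follow from the library totals and cover sampling alone, because PCR copies of a molecule are counted as separate reads. The scripts were tested on simulated data. No pair of replicates held identical counts.

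The named genes are Stag2, the 12 highest and 12 lowest genes whose double differences have the same sign in all 3 experiments (mean log2 CPM at least 2), ranked by the value closest to 0, up to 20 genes called by any tool, up to 4 members of each list with the largest interaction, and genes that earlier results name. The members, the rule and the 34 gene lists, among them 5 of cell type markers, were chosen with earlier results of these data known. A few genes are not reported here. Other genes that the text names were chosen after their values were seen.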

Additional observations from a re-analysis of the deposited data

Results flagged for a closer look

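Of the 77 genes named, 17 had a knockdown effect of opposite sign in the 2 states, in all 3 experiments of each. Many of the 77 were chosen by a large interaction or after their values were seen, which favours opposite signs, so the count of 17 is no test. In edgeR none of the 17 interactions passed the adjusted threshold. Lower with knockdown in proliferating and higher in quiescent cells were Clspn (interaction 2.52), Mcm5 (1.70), Chek1 (1.46), Dhrs9 (1.43), Mcm10 (1.38), Nrm (1.36), Cdc6 (1.10), Mcm3 (0.99), Mcm2 (0.87), Cdca5 (0.85), Chaf1a (0.82), Mcm4 (0.54), Rrp12 (0.43), a ribosome biogenesis factor, Bysl (0.37), another, and Tfdp1 (0.20). Of these, DESeq2 with the replicate block called Clspn, Mcm5, Chek1, Nrm and Chaf1a. Higher in proliferating and lower in quiescent cells were Tgfbr3 (-0.91), a TGF-beta co-receptor, and Cdkn2a (-0.72). Several of the proliferating differences were close to 0: Nrm had -0.46, -0.0034 and -0.04 there, and Cdca5 -0.55, -0.04 and -0.0041. Over all 12406 tested genes, 206 had the first arrangement and 144 the second.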

How the results depend on the processing

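In the main edgeR fit the interaction called 0 genes. It also called 0 with the replicate block, with DESeq2 size factors, with other filters and in each fit without a library or an experiment, and it called 2 with limma on the double differences, 6 with DESeq2 and 29 with DESeq2 and the replicate block. The count at an unadjusted p under 0.05 was 219 in the main fit, 590 with the replicate block, 1222 with limma on the double differences, 568 with DESeq2 and the replicate block, and 144 to 401 over fits without a replicate. Taking 100 in place of 300 genes that decreased most with quiescence moved their mean median double difference from 0.50 to 1.03. The fitted sign changed for 6 of 77 named genes. Over fits without a replicate, Aldh1a2 had -0.127 to 1.57, Ccnb1 had -0.0867 to 2.05, Ccne1 -0.22 to 0.37, Pcna -0.0622 to 0.18, Rbl2 -0.55 to 0.0220 and Rrp12 -0.0583 to 0.77. Without all libraries of experiment 7, Ccnb1 had -0.20 and Ccne1 -0.37, and without those of experiment 5, Pcna had -0.0238. The cause was not tested. Genes near 0 counts in quiescent control cells, such as Ccne2 and Clspn, are limited by depth, and their double differences depend on the prior count of 2. Other prior counts were not tried on single genes.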

Other observations

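Beyond the lists above, 2 groups were put together after the values were seen, and no test was made of them. Of 37 tested genes of homologous recombination, the Fanconi pathway and the S-phase checkpoint, 32 had a positive interaction, with a median of 0.42 and of 0.31, 0.76 and 0.28 in experiments 5, 7 and 9. In all 3 experiments 20 were positive and 0 negative, and 11 of the 37 are also on the G1/S list. Of all genes, 51.5% were positive in the fit, and 16.4% were positive and 14.3% negative in all 3 experiments. The positive end held genes of the cycle, Rad54b (2.07), a DNA translocase of recombination, and Fancd2 (1.63) and Fanci (1.26), the clamp of the Fanconi pathway. Rad54b was near the floor, with 0.069, 0.306 and 0.417 CPM in quiescent control cells and a mean log2 CPM of 0.92. Fancd2 had 0.276, 0.673 and 1.49 CPM there, and double differences of 2.30, 2.58 and 0.44. Atr, the checkpoint kinase upstream of Chek1, had 0.18.

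Of 15 tested genes of retinoic acid synthesis and response, 7 were positive and 8 negative, with a median of -0.01. In all 3 experiments 7 were negative (14.3% of all genes were) and 4 positive (16.4% of all genes). The negative ones included Aldh1a1 (-1.85), Dhrs3 (-1.41), Rdh10 (-1.12), which makes retinal, and Stra6 (-0.79), the retinol carrier of the cell surface. The 4 positive ones were Dhrs9 (1.43), Aldh1a2 (0.84), which like Aldh1a1 makes retinoic acid, Rdh13 (0.32) and Rdh14 (0.20). Dhrs9 and Aldh1a2 were near the floor, with a mean log2 CPM of 0.52 and 0.10. In quiescent control cells Dhrs9 had 0.207, 0.489 and 0.298 CPM and Aldh1a2 0.138, 0.612 and 1.13, and the SE of Aldh1a2 was 1.19.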
